A study of Arabidopsis thaliana with 18 samples.

Results

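Transcript levels of 10 Arabidopsis thaliana genes were followed: the light-signalling transcription factor genes HY5 and HYH, the B-box genes BBX20, BBX21, BBX22, BBX23, BBX24 and BBX25, and the early light-induced protein genes ELIP1 and ELIP2. They were taken by gene identifier from a table of 32833 genes per library, and all 10 were found. The 18 RNA sequencing libraries came from whole seedlings kept in the dark for 3 days at 21 °C and formed 6 groups of 3 libraries, 3 genotypes of the Columbia ecotype on 2 media each. Col-0 is the wild type, gnc gnl carries mutations in both GNC and GNL, which encode related GATA transcription factors, and GNLox overexpresses GNL. The medium was 1/2 MS, a diluted Murashige and Skoog mineral medium, either without sucrose or with 1% sucrose. The sources used here do not give the promoter that drives GNL in GNLox, the mutant alleles or the number of transgenic lines.

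HY5 is a bZIP transcription factor that promotes photomorphogenesis, and HYH is its close homologue. In darkness the HY5 protein is marked for degradation by the ubiquitin ligase COP1 with its SPA partners, and light relieves this. BBX20, BBX21, BBX22 and BBX23 act with HY5 as positive regulators of light responses, whereas BBX24 and BBX25 oppose them. ELIPs are thylakoid proteins related to the light-harvesting antenna, known for protection against excess light, and ELIP genes are known to depend on HY5 under light and UV-B. All of this regulation includes steps on proteins, which these RNA data do not measure.

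The genes lie on all 5 nuclear chromosomes of TAIR10, the build named in the submitters' processing notes. HY5 (AT5G11260) spans chr5:3593335-3595073 on the minus strand, HYH (AT3G17609) spans chr3:6023844-6024710 on the plus strand, ELIP1 (AT3G22840) spans chr3:8084405-8085669 on the minus strand and ELIP2 (AT4G14690) spans chr4:8418242-8419325 on the plus strand. The B-box genes are BBX20 (AT4G39070), BBX21 (AT1G75540), BBX22 (AT1G78600, named LZF1 in the files), BBX23 (AT4G10240), BBX24 (AT1G06040) and BBX25 (AT2G31380). All 10 are annotated as protein coding. The nearest relatives among them by coding sequence were ELIP1 and ELIP2, with 78.9% identical bases over 564 aligned, and BBX24 and BBX25, with 78.2% over 711. The other 43 pairs had between 56.4% and 70.9%, and the homologues HY5 and HYH, at 66.5%, lay within that range. Identity was counted over aligned bases without gaps, so values in that range do not tell homologues from other pairs. Exon reads were 100% unique for all members except BBX24, where 95.7% were. BBX24 overlaps AT1G06045, which had 0 to 2 reads in a library, on the opposite strand over 344 bases, BBX25 overlaps AT2G31390 over 48 bases, and BBX20 overlaps AT4G39060 over 4 bases. The sources used here do not give the strand setting of the counting, so reads in these overlaps cannot be assigned to a gene.

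The 250 bases before the annotated start are printed for HY5, HYH and ELIP1, the genes that were lower in GNLox without sucrose, and for ELIP2, the paralog of ELIP1. They were read from the TAIR10.1 reference, where these genes have the same positions as in the files, and run 5′ to 3′ on the strand of each gene. The windows are chr5:3595074-3595323 (minus) for HY5, chr3:6023594-6023843 (plus) for HYH, chr3:8085670-8085919 (minus) for ELIP1 and chr4:8417992-8418241 (plus) for ELIP2. Capitals mark ACGT, the core of elements that HY5 is known to bind, CACGTG, which contains ACGT, and GATAAG, a motif of the kind bound by GATA factors, each searched on both strands.
HY5: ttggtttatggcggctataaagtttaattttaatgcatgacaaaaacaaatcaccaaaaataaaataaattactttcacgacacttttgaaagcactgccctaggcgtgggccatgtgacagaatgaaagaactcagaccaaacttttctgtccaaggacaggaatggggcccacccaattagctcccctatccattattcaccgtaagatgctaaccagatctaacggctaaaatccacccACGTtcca
HYH: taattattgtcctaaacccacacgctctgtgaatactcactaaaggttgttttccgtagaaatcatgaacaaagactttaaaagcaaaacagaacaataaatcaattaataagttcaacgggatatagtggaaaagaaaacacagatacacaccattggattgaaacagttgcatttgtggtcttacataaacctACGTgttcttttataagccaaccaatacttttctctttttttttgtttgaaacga
ELIP1: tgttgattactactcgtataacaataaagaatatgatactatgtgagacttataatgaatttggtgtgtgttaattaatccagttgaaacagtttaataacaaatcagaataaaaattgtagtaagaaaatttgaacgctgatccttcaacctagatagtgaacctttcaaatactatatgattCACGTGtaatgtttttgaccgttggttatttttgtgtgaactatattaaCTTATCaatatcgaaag
ELIP2: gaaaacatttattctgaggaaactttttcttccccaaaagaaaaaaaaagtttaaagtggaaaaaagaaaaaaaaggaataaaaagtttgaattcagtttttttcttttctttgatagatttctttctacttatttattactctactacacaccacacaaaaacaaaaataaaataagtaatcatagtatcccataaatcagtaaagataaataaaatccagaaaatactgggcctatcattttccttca

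HY5 held 1 ACGT, 8 bases before the start, and HYH held 1, 55 bases before it. ELIP1 held CACGTG 66 bases before the start and GATAAG, seen as CTTATC on this strand, 17 bases before it. ELIP2 held none of these letters in this window. Among 27419 promoters of protein-coding genes of the same length, 44.1% held ACGT, 6.48% held CACGTG and 12.3% held GATAAG. Of the other members, BBX20 and BBX24 held ACGT, at 158 and 100 bases before the start, and the remaining B-box genes held none of the 3 motifs.

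Each library had between 27362791 and 41942516 reads on genes. Nuclear ribosomal RNA took 1.00% to 25.4% of them and plastid genes 0.915% to 23.3%, and the highest shares of both were in GNLox without sucrose replicate 3. Levels are given as CPM, gene reads relative to the TMM-scaled library size, as mean ± SD over 3 libraries. GNL ranged from 2839 to 6289 CPM in the 6 GNLox libraries and from 0.971 to 21.8 in the 6 Col-0 libraries. GNL reads were also present in gnc gnl, where a level below that of Col-0 was not shown. Without sucrose GNL was at 7.12, 10.6 and 11.1 CPM in gnc gnl against 5.86, 21.8 and 12.9 in Col-0. With sucrose it was at 3.89, 5.32 and 3.16 CPM in gnc gnl, above all Col-0 libraries at 0.971, 2.38 and 2.36 (edgeR adjusted p = 0.252). GNC was at 5.27 to 9.26 CPM in gnc gnl against 12.1 to 35.4 in Col-0, a difference called without sucrose (edgeR adjusted p = 0.0195) and not with it (0.112). Reads of a gene do not show whether a mutant allele makes a working protein. PORA, the protochlorophyllide oxidoreductase gene typical of dark-grown seedlings, was present in all 18 libraries, at 68.8 to 370.3 CPM. The root hair genes PRP3, EXPA7 and COBL9 were detected in every group, but without sucrose each had a mean below 1 CPM.

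The B-box gene BBX21 was the most abundant of the 10 transcripts per length in all 6 groups, and BBX24 came next in all 6. In Col-0 without sucrose the authors' TPM, which corrects for transcript length, was 316.0 ± 16.1 for BBX21, 188.2 ± 87.2 for BBX24, 77.1 ± 31.3 for HY5 and 60.1 ± 11 for BBX20 (SD, n = 3). BBX22 followed at 26.4 ± 4.78, ELIP1 at 21.9 ± 12.1, HYH at 13.1 ± 6.79, ELIP2 at 9.64 ± 5.89, BBX25 at 7.88 ± 3.86 and BBX23 at 6.09 ± 1.68 TPM. The libraries of BBX21 and BBX24 did not overlap, nor did those of BBX24 and HY5 or of BBX20 and BBX22. HY5 and BBX20 overlapped, and so did each neighbouring pair from BBX22 downwards, so the order among these is not resolved beyond the spread. In GNLox without sucrose ELIP1 was at 3.31 ± 0.894 TPM, and its libraries overlapped with those of BBX25, HYH, ELIP2 and BBX23, whose means were 3.42 to 3.69 TPM. In GNLox without sucrose replicate 3, the library with the largest ribosomal and plastid shares, BBX21 was at 166.3 TPM against 298.0 and 339.4 in the other libraries of the group. TMM scaling gave 249.8 CPM against 257.1 and 296.1 in the same libraries.

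**Figure D1:**
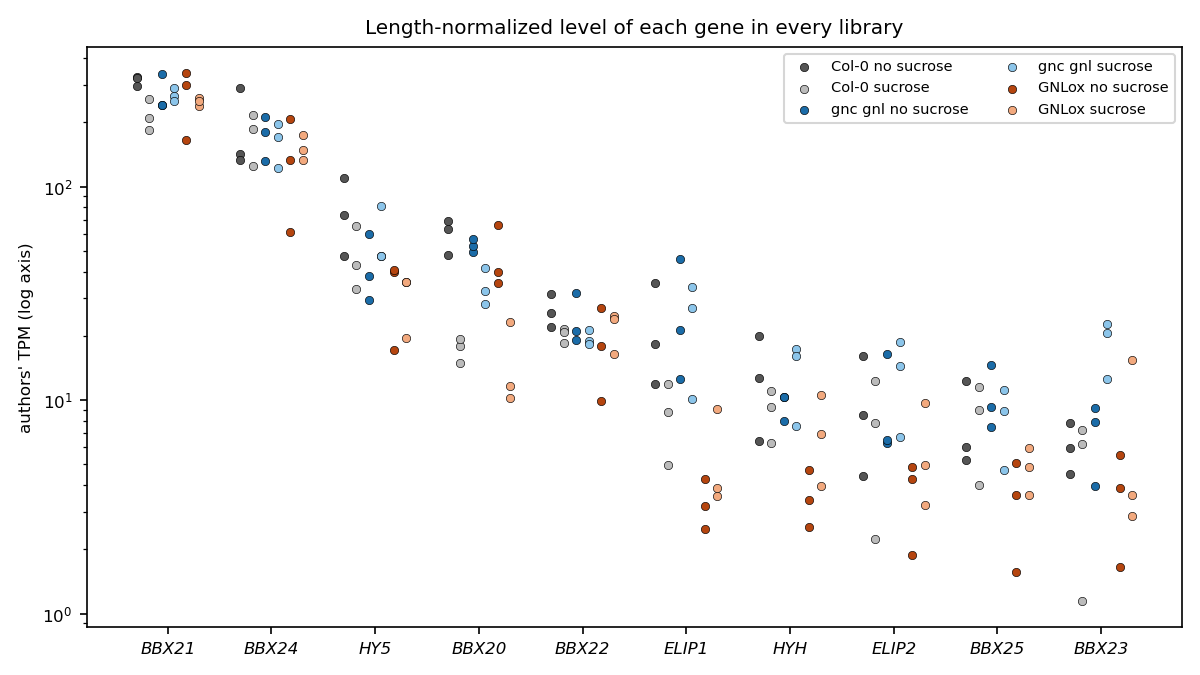
The authors' TPM on a log axis for each of the 10 genes, ordered by their mean in Col-0 without sucrose, with 1 point per library coloured by group. BBX21 and BBX24 have the highest means in each group, and ELIP1 in GNLox without sucrose lies between 2.49 and 4.27 TPM.

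HY5, HYH and ELIP1 fell in GNLox relative to Col-0 on medium without sucrose, while none of the 10 genes rose. ELIP1 was 5.90-fold lower, HYH 3.35-fold lower and HY5 2.25-fold lower. ELIP2 and the HY5 antagonist BBX25 had lower means as well but did not pass the test. The comparison sets dark-grown seedlings with excess GNL beside the wild type. These 3 of 10 members passed an adjusted p under 0.05 in edgeR's quasi-likelihood test, adjusted over 21903 genes, all lower, beside 7.0% of all tested genes called lower and 13.5% called in either direction. The median log2 difference was -0.85 over the 10 members and 0.003 over all tested genes. In bulk seedlings, fewer cells expressing a gene and less RNA per cell cannot be told apart.

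HY5 was at 39.1, 80.1 and 56.9 CPM in the 3 Col-0 libraries without sucrose and at 28.1, 29.0 and 21.0 CPM in those of GNLox. Every GNLox library lay below every Col-0 library. The log2 difference was -1.17 ± 0.331 (SE), with an edgeR adjusted p of 0.03. The call of HY5 held in 1 of 6 fits that each left out 1 library. Without Col-0 replicate 2 the difference was -0.88 (edgeR adjusted p = 0.141), without Col-0 replicate 3 it was -1.19 (0.0658), and without GNLox replicate 1, 2 or 3 it was -1.23, -1.25 or -1.03 (0.0587, 0.0663 and 0.102). Fitting only these 2 groups gave an edgeR adjusted p of 0.0521, whereas DESeq2 gave 0.00558. HY5 also had a lower mean in gnc gnl than in Col-0 on this medium, at -0.78 ± 0.328 (SE; edgeR adjusted p = 0.226). GNLox was not tested against gnc gnl, so the lower HY5 level is not shown to be particular to GNLox.

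HYH was at 3.16, 8.72 and 5.995 CPM in Col-0 and at 1.99, 1.48 and 1.87 CPM in GNLox. The groups did not overlap, and the GNLox libraries were close to each other while Col-0 replicate 2 was well above Col-0 replicate 1. The log2 difference was -1.75 ± 0.379 (SE; edgeR adjusted p = 0.00802), and it was called in all 6 fits with 1 library left out, with edgeR adjusted p between 0.00327 and 0.0423.

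ELIP1 was at 7.87, 20.7 and 11.7 CPM in Col-0 and at 2.51, 1.85 and 2.49 CPM in GNLox. The lowest Col-0 library was above the highest of GNLox. The log2 difference was -2.56 ± 0.56 (SE; edgeR adjusted p = 0.00829), again called in all 6 fits with 1 library left out, between 0.00865 and 0.0407. Leaving out GNLox replicate 3, with its large ribosomal and plastid shares, gave -2.61 for ELIP1 and -1.76 for HYH (edgeR adjusted p = 0.0267 and 0.026).

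ELIP2 was at 2.57, 8.12 and 4.67 CPM in Col-0 and at 2.11, 2.43 and 1.66 CPM in GNLox. Its groups did not overlap either, but the gap between them was small and the log2 difference of -1.29 ± 0.589 (SE) had an edgeR adjusted p of 0.17. BBX25 was at 4.29, 9.11 and 4.75 CPM in Col-0 and at 3.63, 2.57 and 1.92 CPM in the overexpressor. Its log2 difference was -1.13 ± 0.393 (SE), which edgeR did not call (adjusted p = 0.0711) and DESeq2 did (0.0302). In all, 5 of the 10 members had groups that did not overlap, beside 29.8% of all tested genes. The HY5 cofactor genes BBX20, BBX21, BBX22 and BBX23 had log2 differences of -0.23, -0.16, -0.48 and -0.56, and BBX24 one of -0.44, none of them called. Without GNLox replicate 1, BBX22 was called at -0.72 (edgeR adjusted p = 0.0299).

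On medium with sucrose, no member passed in GNLox against Col-0. HY5 came closest, at 12.2, 20.6 and 21.5 CPM in GNLox against 35.4, 47.4 and 22.4 in Col-0, and was the only 1 of the 10 whose groups did not overlap, beside 37.4% of all tested genes. Its log2 difference was -0.95 ± 0.331 (SE; edgeR adjusted p = 0.0549). BBX25 had -1.03 ± 0.385 (edgeR adjusted p = 0.0708), ELIP1 -0.94 ± 0.541 (0.234), HYH -0.60 ± 0.362 (0.252) and ELIP2 -0.63 ± 0.574 (0.473). Of all tested genes, 20.4% were called. The count of 0 members in edgeR stood beside 2 members at an unadjusted p under 0.05, where 35.0% of all tested genes were, and DESeq2 called 2, HY5 at 0.0216 and BBX25 at 0.0388. Single libraries decided several of these values: HY5 was called without Col-0 replicate 3 (-1.19, edgeR adjusted p = 0.0325), BBX25 without Col-0 replicate 1 (-1.30, 0.0377) and BBX20 without GNLox replicate 2 (-0.97, 0.0198). That GNLox library was the highest of its group for 7 of the 10 members, a count not taken over all tested genes. It also had 370.3 CPM of PORA against 88.4 and 91.3 in the others. The part of this in the result was not tested.

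**Figure D2:**
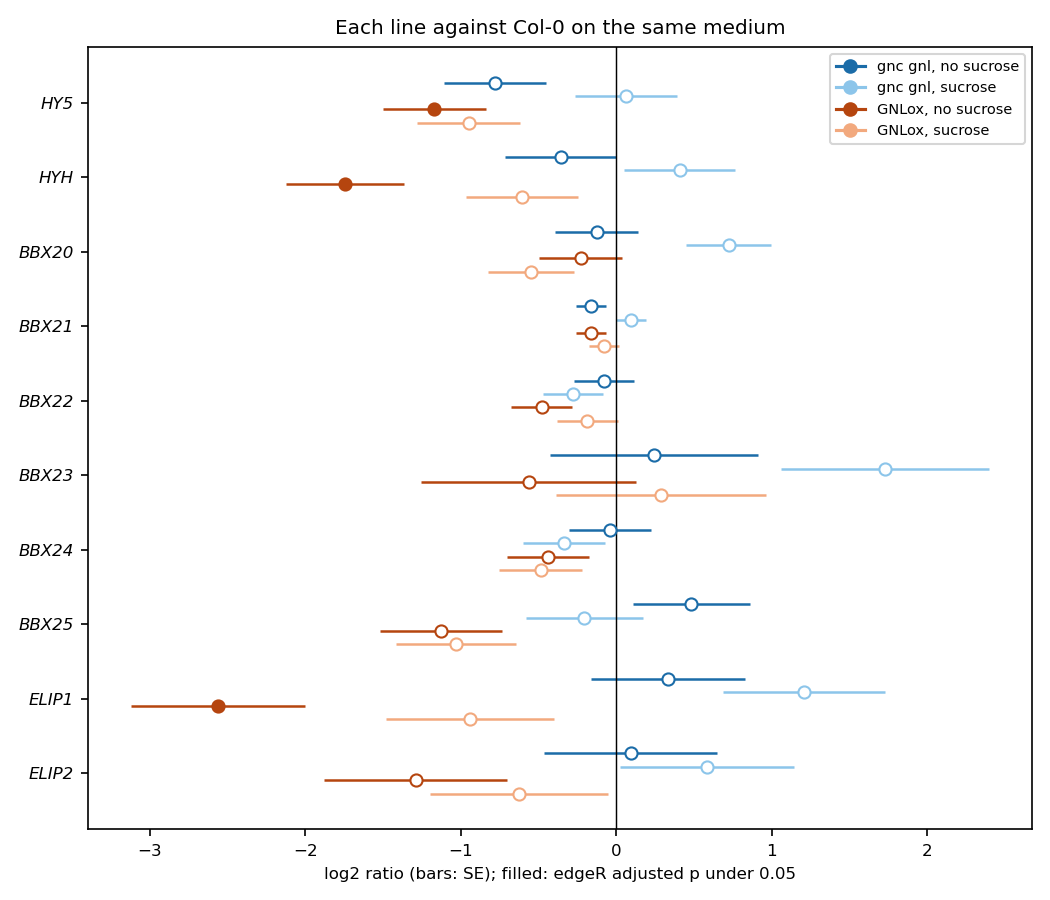
Log2 ratio to Col-0 on the same medium for each gene in gnc gnl and GNLox, with bars of 1 SE and filled points where the edgeR adjusted p was under 0.05. Only HY5, HYH and ELIP1 in GNLox without sucrose are filled, at -1.17, -1.75 and -2.56.

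In gnc gnl no member was called against Col-0 on either medium. Without sucrose HY5 had the lowest unadjusted p, with 23.2, 34.6 and 44.5 CPM against 39.1, 80.1 and 56.9 in Col-0, a log2 difference of -0.78 ± 0.328 (SE; edgeR adjusted p = 0.226). Its groups overlapped, as did those of all 10 members, whereas 24.7% of all tested genes had groups that did not. With sucrose, BBX23 was at 11.5, 6.62 and 11.7 CPM against 4.14, 4.32 and 0.666, and BBX20 was at 22.2, 30.2 and 22.4 CPM against 14.5, 14.9 and 15.8. Both sets of libraries were apart from Col-0, upwards, as were those of BBX22 downwards. These 3 of 10 members stand beside 32.3% of all tested genes whose groups did not overlap. The log2 differences were 1.73 ± 0.671 for BBX23 and 0.73 ± 0.274 for BBX20, with edgeR adjusted p of 0.248 and 0.242. ELIP1 had 1.21 ± 0.518 (edgeR adjusted p = 0.272). edgeR called 1.29% of all tested genes without sucrose and 0.16% with it. At an unadjusted p under 0.05 there was 1 member without sucrose, beside 18.2% of all tested genes, and there were 3 with it, beside 16.6%. DESeq2 called 0 members on both media.

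BBX20 and BBX21 fell with sucrose in all 3 genotypes. BBX20 was 3.605-fold lower in Col-0, 1.998-fold lower in gnc gnl and 4.498-fold lower in GNLox, and BBX21 was 1.54-fold, 1.29-fold and 1.45-fold lower. ELIP1 also fell in Col-0 and BBX22 in gnc gnl, and no member rose in any genotype. Sucrose moved a large part of the transcriptome, and these counts are read against it: 3 of 10 members were called lower in Col-0, 3 in gnc gnl and 2 in GNLox, beside 23.8%, 14.3% and 26.1% of all tested genes called lower and 49.8%, 32.2% and 54.8% called in either direction. Set against genes called lower, the members' shares were near the background in Col-0 and GNLox and above it in gnc gnl. Set against genes called in either direction, they were below it in Col-0 and GNLox and near it in gnc gnl. The median log2 change of the members was -0.53, -0.41 and -0.05 in Col-0, gnc gnl and GNLox, against 0.0, 0.002 and 0.026 over all tested genes. The root hair genes rose with sucrose in every genotype, PRP3 from 0.350 ± 0.176 to 16.6 ± 2.79 CPM in Col-0, and the part of this change in tissue makeup in the members' values was not tested.

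BBX20, a B-box protein of brassinosteroid and light signalling, was at 45.8, 53.4 and 63.5 CPM in Col-0 without sucrose and at 14.5, 14.9 and 15.8 CPM with it. In gnc gnl it went from 45.3, 55.9 and 48.0 CPM to 22.2, 30.2 and 22.4, and in GNLox from 28.5, 54.1 and 56.8 CPM to 7.20, 15.5 and 8.14. The libraries with and without sucrose were apart in each genotype. The log2 changes were -1.85 ± 0.279, -0.999 ± 0.271 and -2.17 ± 0.282 (SE), with edgeR adjusted p of 0.000112, 0.0119 and 2.24e-05, and all were called in each fit with 1 library left out.

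BBX21 was at 298.7, 289.6 and 309.1 CPM in Col-0 without sucrose and at 184.4, 181.5 and 216.8 CPM with it. In gnc gnl its values were 234.7, 266.5 and 301.6 CPM without sucrose and 211.8, 203.5 and 207.6 with it, and in GNLox they were 257.1, 296.1 and 249.8 CPM without and 181.9, 185.2 and 185.0 with it. Again no library with sucrose reached the lowest without it. The log2 changes were -0.62 ± 0.098, -0.37 ± 0.098 and -0.54 ± 0.098 (SE), with edgeR adjusted p of 0.000147, 0.0107 and 0.000314. The gnc gnl call was lost without replicate 3 of the sucrose-free group, at -0.27 (edgeR adjusted p = 0.062).

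**Figure D3:**
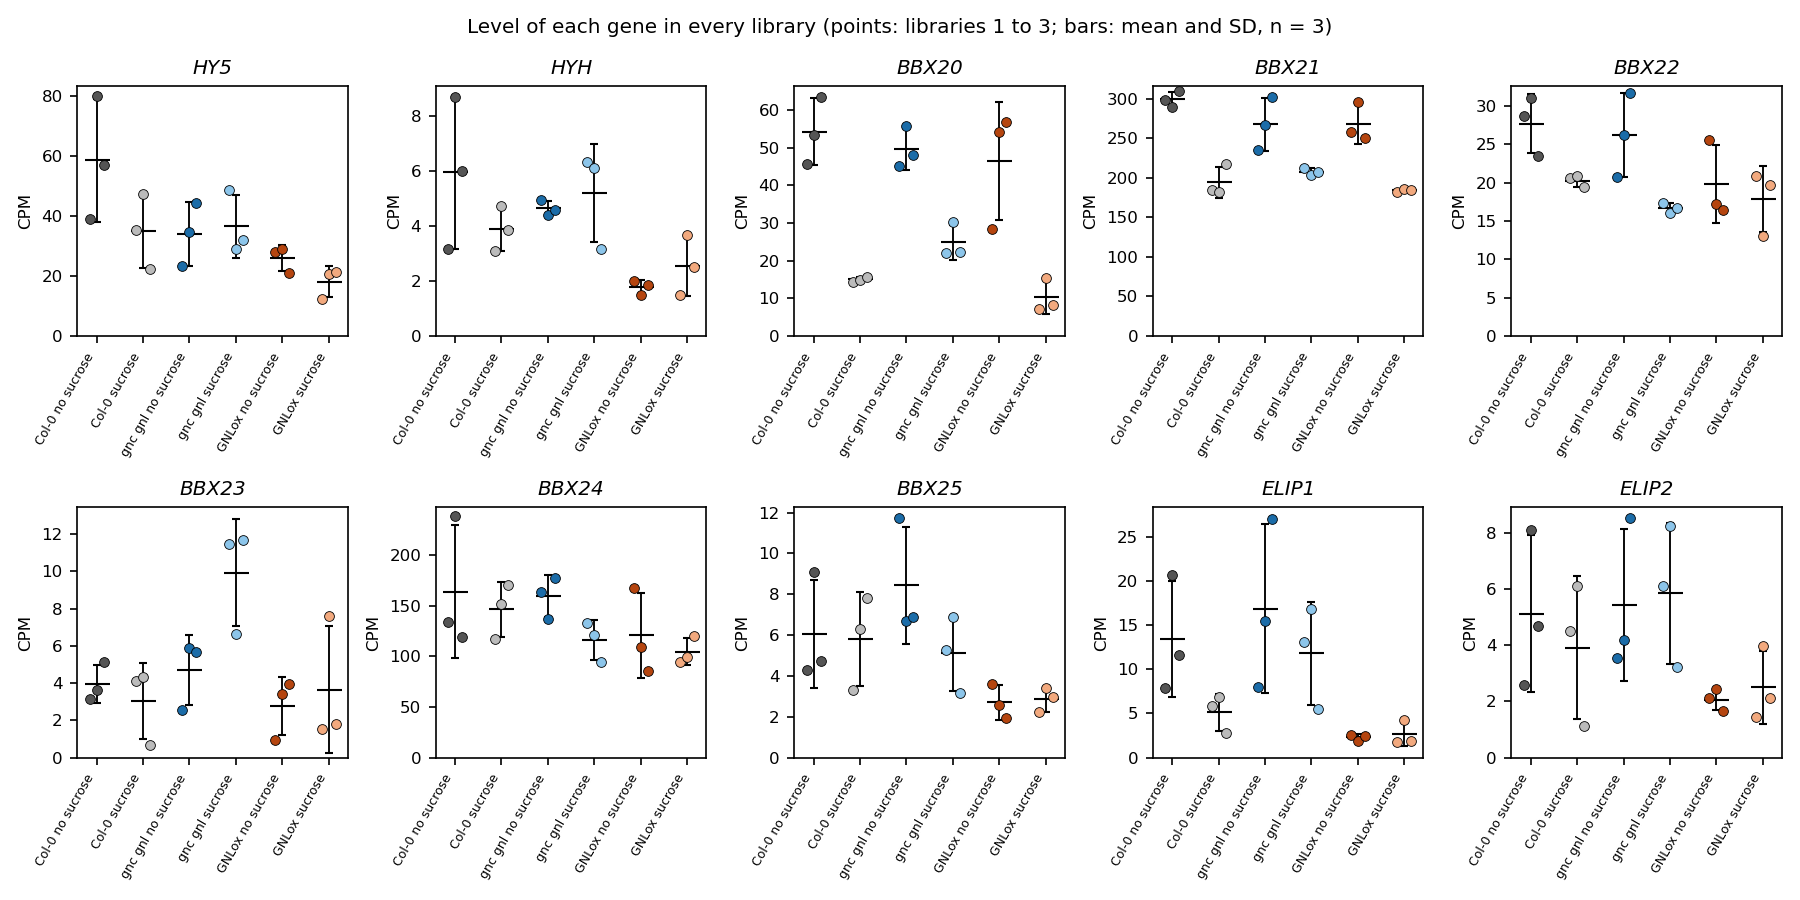
CPM of each of the 10 genes in all 18 libraries, with 1 panel per gene, points for libraries and bars for the mean and SD of 3. BBX20 and BBX21 are lower with sucrose in each genotype, and HYH and ELIP1 in GNLox without sucrose lie below every Col-0 library on that medium.

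ELIP1 went from 7.87, 20.7 and 11.7 CPM to 5.79, 6.82 and 2.74 with sucrose in Col-0. The groups did not overlap, but the highest sucrose library was close to the lowest without it. The log2 change of -1.40 ± 0.519 (SE) had an edgeR adjusted p of 0.0362 and was called in 2 of 6 fits with 1 library left out. It was -0.94 without sucrose-free replicate 2 (edgeR adjusted p = 0.178), -1.49 without sucrose-free replicate 3 (0.0558), -1.49 without sucrose replicate 1 (0.0675) and -1.08 without sucrose replicate 3 (0.13), and with no filter on low counts the adjusted p was 0.0525. In gnc gnl ELIP1 was at 8.01, 15.5 and 27.1 CPM without sucrose and 13.1, 16.9 and 5.47 with it, and in GNLox it was at 2.51, 1.85 and 2.49 without and 1.79, 4.23 and 1.89 with it. Those groups overlapped, and neither change was called (-0.52 ± 0.497 and 0.23 ± 0.572).

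BBX22 went from 20.8, 26.3 and 31.6 CPM to 17.4, 16.03 and 16.7 with sucrose in gnc gnl, without overlap. The log2 change was -0.65 ± 0.196 (SE; edgeR adjusted p = 0.02). It was lost without replicate 2 or 3 of the sucrose-free group (-0.64 and -0.49, edgeR adjusted p = 0.0559 and 0.102) and without replicate 2 or 3 of the sucrose group (-0.63 and -0.65, 0.0543 and 0.0561). In Col-0 its change was -0.45 ± 0.194 (edgeR adjusted p = 0.0665), called in the fit of these 2 groups alone (-0.44, 0.0151) and without sucrose-free replicate 3 (-0.56, 0.0496). In GNLox it was -0.16 ± 0.195.

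HY5 and HYH did not pass in any genotype with sucrose. HY5 changed on the log2 scale by -0.74 ± 0.327 in Col-0 (edgeR adjusted p = 0.0714), 0.10 ± 0.327 in gnc gnl and -0.52 ± 0.331 in GNLox. In Col-0 it was called without sucrose-free replicate 1 (-0.97, edgeR adjusted p = 0.0289) or sucrose replicate 2 (-1.02, 0.0355). HYH had -0.61 ± 0.355, 0.16 ± 0.355 and 0.53 ± 0.382, and was called in Col-0 without sucrose-free replicate 1 (-0.91, edgeR adjusted p = 0.035). ELIP2, BBX23, BBX24 and BBX25 were not called in any genotype. BBX24 in gnc gnl, at -0.46 ± 0.265, was called in the fit of these 2 groups alone (edgeR adjusted p = 0.0495). The neighbour of BBX25, AT2G31390, rose with sucrose from 45.1 ± 7.28 to 85.9 ± 5.42 CPM in Col-0, while BBX25 was at 6.05 ± 2.66 and 5.82 ± 2.3 CPM.

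**Figure D4:**
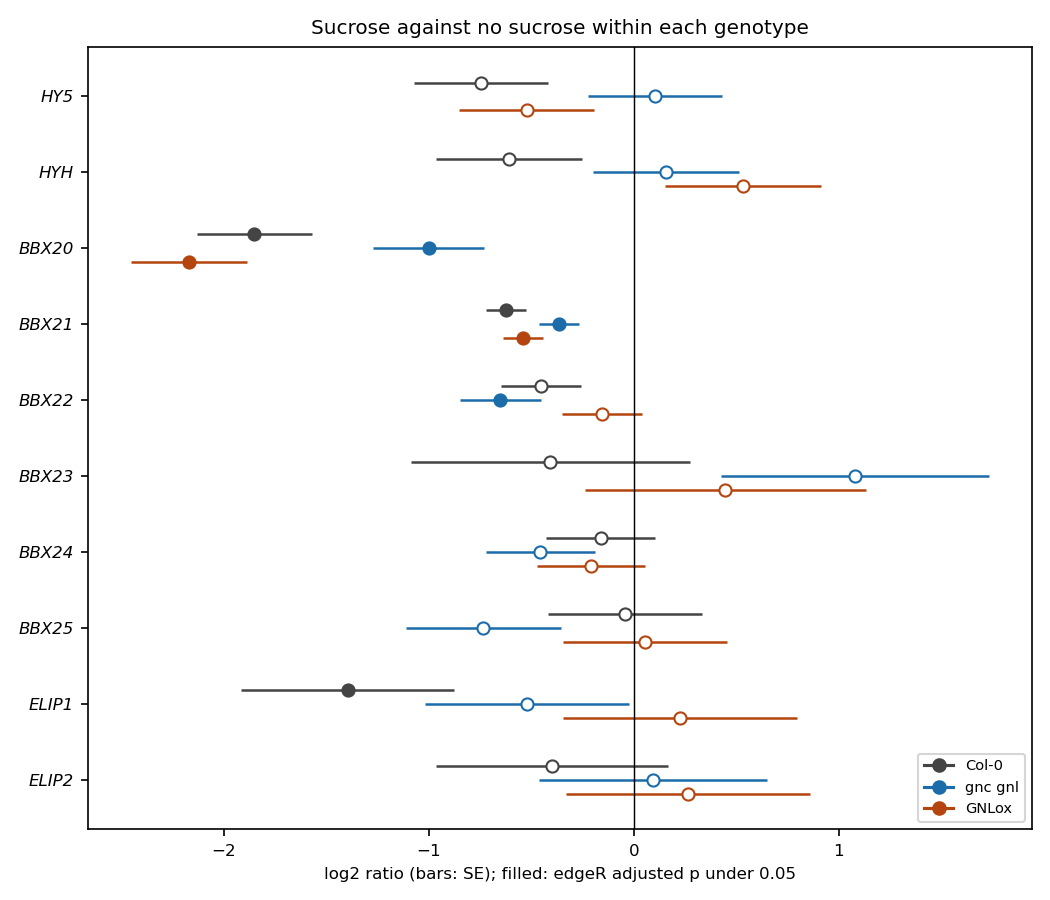
Log2 ratio of sucrose to no sucrose for each gene in Col-0, gnc gnl and GNLox, with bars of 1 SE and filled points where the edgeR adjusted p was under 0.05. BBX20 and BBX21 are filled in all 3 genotypes, ELIP1 in Col-0 and BBX22 in gnc gnl.

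The size of the sucrose response of BBX20 was not shown to differ between genotypes. Its log2 change in gnc gnl minus that in Col-0 was 0.85 ± 0.383 (SE; edgeR adjusted p = 0.647), and that in GNLox minus Col-0 was -0.32 ± 0.385 (0.788). For HYH and ELIP1 in GNLox, the differences of response were 1.14 ± 0.522 and 1.62 ± 0.771 (edgeR adjusted p = 0.322 and 0.344). No member was called in either difference by edgeR, with 1 at an unadjusted p under 0.05 in each, and DESeq2 called 0. Of all tested genes, 7.56% for gnc gnl and 14.9% for GNLox had an unadjusted p under 0.05. edgeR called 0.0% for gnc gnl and 1.12% for GNLox, 0.356% with the lower response in GNLox.

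Across the 11 calls among 90 member results, BBX20 in all 3 genotypes, BBX21 in Col-0 and GNLox, and HYH and ELIP1 in GNLox without sucrose were called under every setting and with each library left out. The calls of HY5, of ELIP1 with sucrose in Col-0, and of BBX21 and BBX22 in gnc gnl depended on single libraries.

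**Figure D5:**
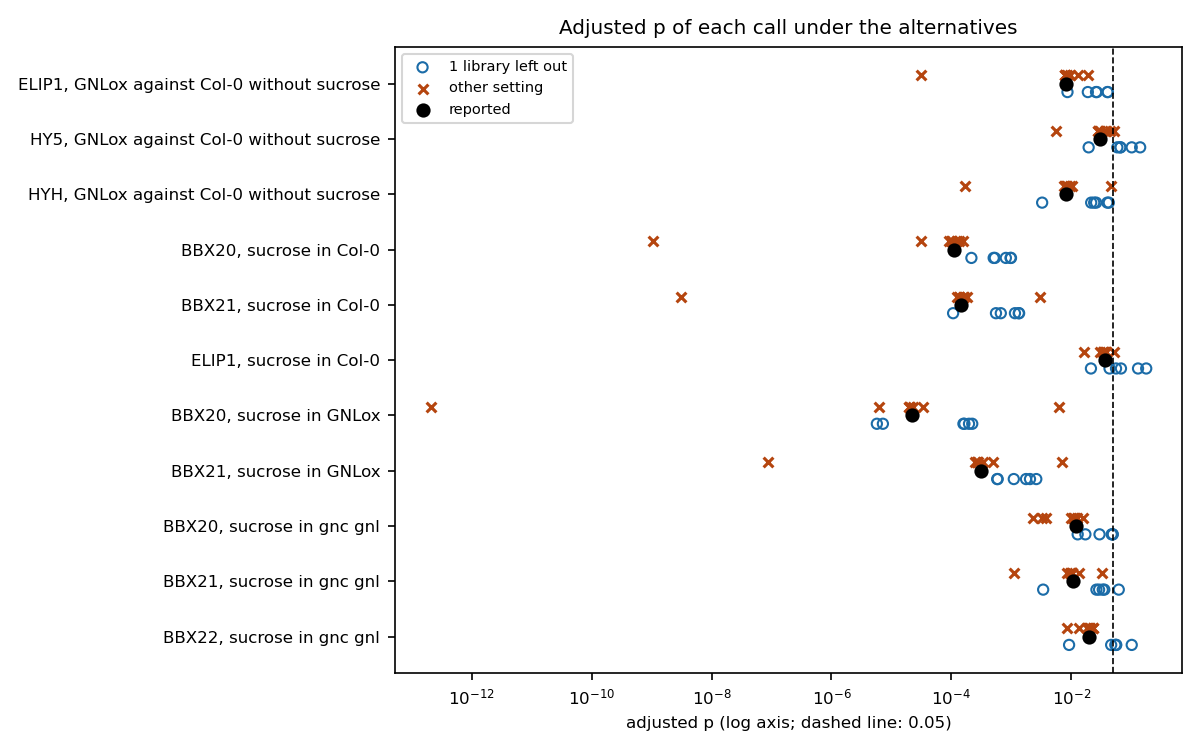
Adjusted p on a log axis for each of the 11 calls, as reported (black), with 1 library left out (circles) and under the other settings (crosses), with the dashed line at 0.05. HY5 in GNLox reaches 0.141 and ELIP1 with sucrose in Col-0 reaches 0.178 with 1 library left out, whereas HYH and ELIP1 in GNLox stay at or below 0.0453.

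Libraries of a group differed together for several members. In Col-0 without sucrose, replicate 2 was the highest for 7 of the 10 members, among them HY5, HYH, ELIP1 and ELIP2, and replicate 1 was the lowest for those 4. How many of all tested genes had the same highest library was not counted, so this is not shown to be a trait of the members. ELIP1 and ELIP2 had their highest library in common in 5 of 6 groups. HY5 with HYH, HYH with ELIP2 and BBX24 with BBX25 each did so in 3 of 6. Only these pairs were picked for counting, and the other pairs of members were not counted. A shared highest library is therefore not shown to be particular to homologues or to these pairs. The coefficient of variation within a group was 1.01% to 12.5% for BBX21 and 16.5% to 56.9% for ELIP1.

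More genes of the related lists were called for sucrose than between genotypes, as was the case over all tested genes, of which 49.8%, 32.2% and 54.8% were called for sucrose in Col-0, gnc gnl and GNLox. Of all tested genes, 23.8%, 14.3% and 26.1% fell with sucrose in these genotypes, and 26.0% rose in Col-0 and 28.7% in GNLox. Between genotypes, 6.53% were higher and 7.0% lower in GNLox without sucrose, 10.2% were higher and 10.2% lower in GNLox with sucrose, and 0.991% were higher and 0.301% lower in gnc gnl without sucrose. The list counts that follow are read against these shares. Of 26 other B-box genes, 21 passed the low-count filter. With sucrose 9 fell and 1 rose in Col-0 (23.8% and 26.0% of all tested genes), 6 fell in gnc gnl (14.3%) and 10 fell in GNLox (26.1%). In Col-0 the smallest adjusted p were those of BBX7, BBX6, BBX1 and BBX11, with log2 changes of -1.06, -0.99, -1.76 and -0.66. In gnc gnl they were BBX6 (-0.82), BBX1 (-1.33), BBX5 (-0.54) and BBX11 (-0.37), and in GNLox they were BBX6 (-1.32), BBX1 (-2.12), BBX28 (-0.93) and BBX7 (-0.92). The riser was BBX16, chosen for mention after its values were seen, with 1, 1 and 0 reads without sucrose and 4, 2 and 52 with it. Among sucrose-free libraries it reached the low-count filter's level only in gnc gnl replicate 1, with 32 reads. It passed only because libraries with sucrose were counted, so its rise is not independent of the filter. The median log2 change of the 21 genes was -0.66, -0.25 and -0.78 in Col-0, gnc gnl and GNLox. In GNLox against Col-0 edgeR called none of the 21 without sucrose, where 2 had an unadjusted p under 0.05 and DESeq2 called 1, and with sucrose BBX11 and BBX7 were higher (0.67 ± 0.117 and 0.50 ± 0.164) and BBX28 was lower (-0.52 ± 0.142). In gnc gnl against Col-0 edgeR and DESeq2 called 0 of the 21 on either medium, with 2 at an unadjusted p under 0.05 without sucrose and 0 with it.

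A list of 14 genes held ubiquitin ligase components, UV-B partners of HY5, and HFR1 and LAF1, which belong to neither class. Of the 14, 8 fell with sucrose in Col-0, 6 in gnc gnl and 8 in GNLox, and none rose. These counts stand beside 23.8%, 14.3% and 26.1% of all tested genes called lower. In Col-0 the smallest adjusted p belonged to HFR1, a bHLH factor of light signalling (-1.04 ± 0.137), the UV-B receptor gene UVR8 (-0.72 ± 0.114), DDB1A (-0.42 ± 0.069) and SPA2 (-0.40 ± 0.067). In gnc gnl SPA2, DDB1A, HFR1 and UVR8 had the smallest, with changes of -0.41, -0.39, -0.72 and -0.55. In GNLox RUP1 (-1.64), HFR1 (-1.12), UVR8 (-0.93) and SPA2 (-0.49) did. The medians were -0.41, -0.30 and -0.42. In GNLox against Col-0 without sucrose, SPA3 (-0.73 ± 0.183) and SPA1 (-0.81 ± 0.25) were lower, both encoding partners of COP1. With sucrose 5 were lower, led by RUP1, a repressor of UVR8 signalling (-1.21 ± 0.129), SPA3 (-0.73 ± 0.184), UVR8 (-0.39 ± 0.114) and RUP2 (-0.74 ± 0.225), and the other was SPA1. In gnc gnl without sucrose SPA4 was lower (-0.53 ± 0.09). With sucrose edgeR called none there, with 2 at an unadjusted p under 0.05 and 0 called by DESeq2.

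Of 12 flavonoid genes known as HY5 targets or downstream of it, 9 passed the filter. Of these, 3 rose with sucrose in Col-0 and 4 in GNLox, beside 26.0% and 28.7% of all tested genes. The regulators MYB111, MYB12 and MYB75 rose with sucrose in Col-0, but from few reads: MYB75 had 0, 0 and 1 reads without sucrose and 5, 9 and 6 with it. MYB12 had 1, 4 and 0 reads without sucrose and 15, 12 and 10 with it. It had no more than 4 reads in any sucrose-free library, so it passed the low-count filter only through libraries with sucrose. MYB75 reached the filter's level among sucrose-free libraries only in gnc gnl replicate 2, with 17 reads. It too passed only because libraries with sucrose were counted. The places of MYB12 and MYB75 among the risers are therefore not independent of the filter. In GNLox the 4 were MYB111, MYB12, MYB75 and the chalcone isomerase gene CHI. In gnc gnl edgeR and DESeq2 both called 0, with 0 at an unadjusted p under 0.05. The medians were 1.05, 0.67 and 1.30. In GNLox without sucrose the flavanone hydroxylase gene F3H was lower, at 0.624 ± 0.235 against 2.501 ± 1.22 CPM in Col-0 (edgeR adjusted p = 0.0323), and F3'H was higher, at 4.28 ± 0.156 against 2.17 ± 0.355 (0.0319). With sucrose CHI was higher in GNLox (0.77 ± 0.195), and in gnc gnl without sucrose FLS1 was higher, at 2.22 ± 1.36 against 0.290 ± 0.215 CPM, the single edgeR call there. In that comparison DESeq2 called 4 of the 9, and it called 997 genes in all. An unadjusted p under 0.05 was found for 4 of the 9, beside 18.2% of all tested genes. Groups did not overlap for 5 of the 9, beside 24.7% of all tested genes. The median log2 difference of the 9 was 1.31, against -0.014 over all tested genes. CHS, the chalcone synthase gene, was at 13.7 ± 3.35 CPM in gnc gnl against 1.18 ± 1.68 in Col-0, without overlap (edgeR adjusted p = 0.0599), and is named after its values were seen. With sucrose edgeR called 0 flavonoid genes in gnc gnl, and DESeq2 called 1, of 334 genes it called in all. An unadjusted p under 0.05 was found for 4 of the 9, beside 16.6% of all tested genes. Of 7 light-harvesting-like genes related to ELIPs, SEP2 was lower in GNLox on both media (-0.72 ± 0.088 without sucrose and -0.56 ± 0.088 with it), SEP2 and OHP2 fell with sucrose in Col-0, SEP2 in gnc gnl and OHP2 in GNLox, and none rose. Of the calls between genotypes on these lists, those of BBX11, RUP1 and SEP2 in GNLox held in all 6 fits with 1 library left out. The others were lost in 2 to 6 of the 6 fits. Among the sucrose calls named here, those of BBX16, MYB75 and OHP2 in Col-0, of BBX5, BBX11 and SEP2 in gnc gnl, and of CHI, MYB111, MYB75 and OHP2 in GNLox were lost in 1 to 4 of 6 such fits.

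Genes with the most similar course over the 18 libraries were found by the root mean square difference of log2 CPM, each gene centred on its own mean, among 21742 nuclear genes. For HY5 they were GLK2, a regulator of chloroplast genes (0.335), and AT1G14640 (0.34). For HYH they were HCF173, a factor for translation in chloroplasts (0.325), and the clock gene CCA1 (0.337). For BBX20 they were UVR3, a DNA photolyase gene (0.203), and AT2G24535 (0.215). UVR3 was at 49.1, 44.7 and 46.6 CPM without sucrose in Col-0, gnc gnl and GNLox and at 17.1, 23.5 and 11.3 with it. For ELIP1 they were F3H (0.617) and NPF6.4 (0.622), and for ELIP2 they were IQD25 (0.46) and HYH (0.548). ELIP2 was the fourth nearest gene to ELIP1. The root mean square deviation of each gene from its own mean was 0.624 for HY5, 0.706 for HYH and 0.974 for BBX20. It was 1.234 for ELIP1 and 0.847 for ELIP2. The distances are read against these values, and the nearest gene in rank need not be a close match. These distances are descriptions over libraries that share their groups and depth.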

How the data were processed

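Total RNA of 18 seedling samples was sequenced, and the authors deposited 1 table per library with 32833 genes. Per the file headers, the deposited values are read counts per gene (total, unique, in exons, in introns), RPKM, TPM, and the fraction of exon reads that were unique and of reads in introns. Reads were mapped to TAIR 10 per the submitters' processing notes. The sources used here do not name the aligner, the counter or the strand setting. RPKM and the fractions entered no test, and the deposited TPM was used only to order levels between genes.

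Total gene read counts, as deposited, were fitted with edgeR 4.0.16 in R 4.3.3 (TMM, filterByExpr by group, robust quasi-likelihood fit) as 1 model of 6 group means with 12 residual degrees of freedom. Tests were two-sided, p-values were adjusted by Benjamini-Hochberg over 21903 tested genes, and a gene was called at adjusted p under 0.05. All 10 members passed the filter. The script was tested on simulated data. SE is the log2 value divided by the square root of F. Depth was 27362791 to 41942516 gene reads per library. Nothing says that replicates came from separate cultures, so a p-value reflects the spread among the sequenced samples, which may be technical. No 2 libraries of a group held identical values.

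Alternatives were RLE scaling, no low-count filter, DESeq2 1.42.0, only the compared groups, unique or exon reads, nuclear genes without ribosomal RNA, the replicate number as a block, and each library left out. In GNLox against Col-0 without sucrose, deviations of same-numbered libraries correlated positively (0.409, 0.126 and 0.26). GNLox library 2 correlated better with Col-0 library 3 (0.176) than with its own number, so a pairing was not established. Between Col-0 with and without sucrose, same-numbered libraries also correlated positively (0.205, 0.04 and 0.062). There, sucrose library 3 correlated better with sucrose-free library 2 (0.098). The labels state no pairing, and the reported tests used none. The replicate block changed no member call. All members are named in each comparison, and of each list up to 4 called genes with the smallest adjusted p. The members and lists were chosen with earlier results of these data known. Coding sequences were aligned globally with Biopython 1.88.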

Additional observations from a re-analysis of the deposited data

Results flagged for a closer look

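RUP1, which encodes a repressor of the UV-B receptor UVR8, was the single listed gene whose sucrose response differed between genotypes in a test of the difference itself. It went from 25.0 ± 0.906 to 16.3 ± 2.6 CPM with sucrose in Col-0 and from 21.9 ± 0.946 to 7.03 ± 1.23 CPM in GNLox (SD, n = 3). The log2 response in GNLox minus that in Col-0 was -1.02 ± 0.179 (SE; edgeR adjusted p = 0.0193), and it was called in 7 of 12 fits with 1 library left out, with adjusted p from 0.0201 to 0.072. It was called in all 8 other settings, with adjusted p from 2.92e-05 to 0.0403. The 3 GNLox libraries with sucrose, at 5.67, 7.37 and 8.07 CPM, were below all other libraries for this gene.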

How the results depend on the processing

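Of 1380 member values under the alternatives, 1351 stayed on the same side of the threshold, 16 calls were lost and 13 gained. No called value reversed, and 53 uncalled values changed sign. DESeq2 called 2 members in GNLox against Col-0 with sucrose, where edgeR called 0. Counts over all genes moved more. For gnc gnl against Col-0 without sucrose, 283 genes became 997 with DESeq2, 31 with only the compared groups and 500 with the replicate block. With sucrose, 35 became 334 with DESeq2 and 105 with only the compared groups. For GNLox against Col-0, only the compared groups gave 1223 in place of 2964 without sucrose and 1645 in place of 4464 with it. For the difference of response, DESeq2 called 68 in place of 0 for gnc gnl and 875 in place of 245 for GNLox. The cause was not tested. The replicate block changed no member call. Outside GNLox against Col-0 without sucrose, same-numbered libraries had correlations between -0.391 and 0.346, and in none of the 7 comparisons of a pair of groups, GNLox against Col-0 without sucrose included, did every library correlate best with its own number.

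With 1 library left out, members called ranged from 2 to 5 for sucrose in Col-0 and from 1 to 3 for sucrose in gnc gnl, and from 2 to 3 for GNLox against Col-0 without sucrose and 0 to 1 with it. For sucrose, the genes called ranged from 8639 to 10818 (Col-0), from 4626 to 7104 (gnc gnl) and from 10227 to 12366 (GNLox). They ranged from 20 to 908 for gnc gnl against Col-0 without sucrose and 16 to 26 with it, from 1518 to 2542 for GNLox without sucrose and 2144 to 4596 with it, and from 0 to 1 and 2 to 383 for the differences of response of gnc gnl and GNLox. HYH, BBX23, BBX25, ELIP1 and ELIP2 had as few as 36, 26, 37, 48 and 32 reads in a library, which limits their precision.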
